A study of Canis lupus familiaris with 8 samples.

Results

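The genes described here encode the subunits and helpers of the proteasome (symbols PSMA to PSMG followed by a number), the ubiquitin-conjugating enzymes (UBE2), the ubiquitin-specific proteases (USP) and the OTU-domain deubiquitinases of the OTUD series, in retina of the dog. They were picked by symbol, and these families were chosen with earlier results of these data known. The symbols took 120 of the 12824 genes in the deposited table: 45 proteasome genes, 28 UBE2 genes, 40 USP genes and 7 OTUD genes. The samples came from wild-type male Beagles, 31 weeks old. In the fresh-frozen group (4 libraries), right eyecups were cut into quadrants and frozen in embedding medium without fixation. In the PFA-fixed group (4 libraries), left eyecups were fixed with paraformaldehyde (PFA, which crosslinks proteins and nucleic acids), at 4% over 3 h and then at 2% over 24 h in the cold (4 °C), passed to 15% and 30% sucrose for 24 h each, and frozen in the same medium. RNA was extracted with different kits in the 2 groups, with 18 h of proteinase K at 56 °C for fixed tissue only. Fixation, eye side and extraction therefore changed together and cannot be told apart, and every difference below belongs to the preparation as a whole. The labels speak of biological replicates without saying which libraries share a dog, so a p-value reflects the variation among these 8 libraries, which may be technical. The question was how far measured RNA levels depend on the preparation.

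Ubiquitin is a small protein that cells attach to other proteins as a signal. An activating enzyme (E1) charges ubiquitin, a conjugating enzyme (E2, the UBE2 family) carries it, and a ligase (E3) directs it to a substrate. Deubiquitinases such as the USP and OTUD enzymes take it off again. Proteins tagged with ubiquitin chains are degraded by the proteasome, a barrel of stacked rings (the 20S core) with the proteolytic sites inside, capped by the 19S regulatory particle, which binds, unfolds and feeds in the substrate. Photoreceptors renew their light-sensing outer segments continuously and have a high demand for protein quality control.

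Values are log2 CPM (read counts scaled per library), which are not divided by transcript length, so levels are compared between groups and not between genes. The effective depth, estimated from the low values, was 21650000 to 22750000 reads in fresh-frozen and 11040000 to 15410000 in PFA-fixed libraries. A gene was called when its adjusted p in limma, over all 12824 genes, was under 0.05, and changes are PFA-fixed minus fresh-frozen on the log2 scale. Of all genes measured, 68.7% were called, 33.9% higher and 34.7% lower in fixed retina, with a median change of -0.02. As a view of the neural retina, 22 rod photoreceptor genes were listed, all of which were measured. Of these, 10 were called higher and 4 lower, with a median change of 0.22. Markers of tissue outside the neural retina differed strongly. All 11 sclera and fibroblast genes and all 11 pigment epithelium genes fell, with medians of -7.40 and -4.84. The groups may thus differ in the tissue they hold, and the part of this in the changes below was not tested. Centring each library on the mean of the rod genes moved the median of all genes to -0.27, and centring on their median moved it to -0.67. Neither centring removed the calls among the rod genes themselves. With their mean, 5 were then called higher and 6 lower, with a median of -0.04. With their median, 1 was called higher and 15 lower, with a median of -0.43. Small rises named below are therefore relative to the deposited scaling.

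The 120 genes were called about as often as the rest of the table, with 36 higher and 44 lower (66.7% against 68.7%), but their families went different ways. Among 45 proteasome genes there were 26 falls and 7 rises (57.8% lower and 15.6% higher), and the median change was -0.27. Among 40 USP genes there were 18 rises and 9 falls (45% higher and 22.5% lower), and the median change was 0.13. The 28 UBE2 genes divided into 7 that rose, 8 that fell and 13 that were not called, with a median of 0.02. Among 7 OTUD genes there were 4 rises and 1 fall, and the median change was 0.59. Changes of at least 2-fold were few, 5 of 120 higher and 6 lower, where all genes measured had 10.6% and 13.7%. The groups did not overlap in 75 of the 120 genes, or 62.5%, where 62.9% of all genes separated.

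The summed level of each family in each library shows the same division. Proteasome genes together took 2536, 2501, 2483 and 2472 CPM in fresh-frozen replicates 1 to 4 and 2220, 2334, 2312 and 2246 CPM in fixed replicates 1 to 4. Every fixed library was below every fresh-frozen library. USP genes took 3234, 3403, 3254 and 3437 CPM in fresh-frozen libraries and 4069, 4042, 4073 and 3971 CPM in fixed libraries, with every fixed library above. For UBE2 genes the ranges overlapped, at 1369 to 1448 CPM and 1430 to 1517 CPM. OTUD genes took 492 to 535 CPM in fresh-frozen and 689 to 794 CPM in fixed libraries. A sum is dominated by its most abundant members, so the gene by gene results follow.

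**Figure D1:**
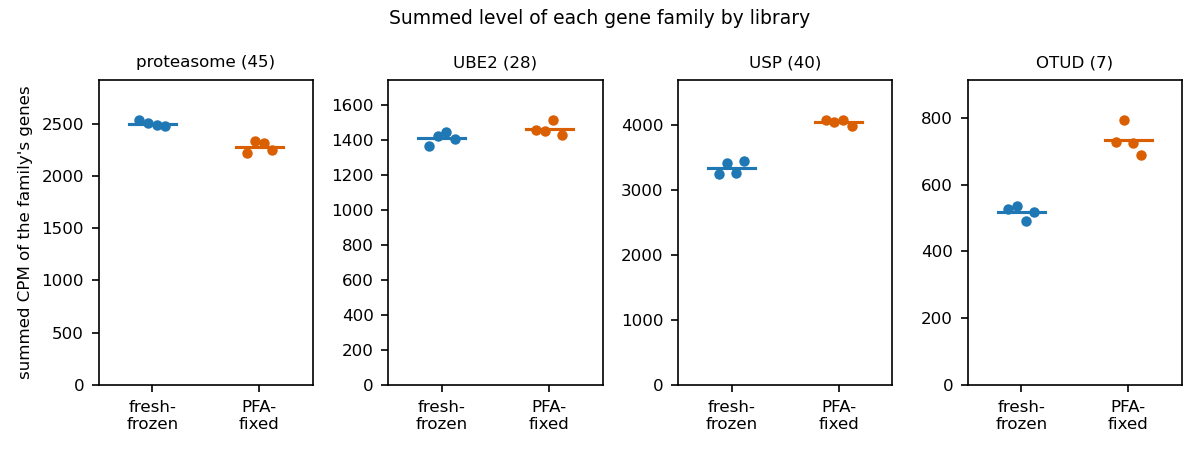
Summed CPM of the genes of each family (y axis, linear, from 0) in the 4 fresh-frozen (blue) and 4 PFA-fixed (orange) libraries; points are libraries and bars are group means. The fixed libraries lie below the fresh-frozen ones for the proteasome (2220 to 2334 against 2472 to 2536 CPM) and above them for USP (3971 to 4073 against 3234 to 3437 CPM), and the groups overlap for UBE2. The sum over all genes, not drawn, was also higher in every fixed library.

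The beta rings of the 20S core carry the proteolytic sites, and all 7 constitutive beta subunit genes fell, with a median of -0.69 and members between -1.10 and -0.34. PSMB5, which carries the chymotrypsin-like site, stood at 5.18, 4.99, 5.05 and 5.10 log2 CPM in fresh-frozen replicates 1 to 4 and at 4.02, 4.02, 3.90 and 3.97 in fixed replicates 1 to 4. The 2 sets of values lay about a whole log2 unit apart, and PSMB5 fell by 1.10 ± 0.09 (SE; limma adjusted p = 4.66e-07). PSMB7, the trypsin-like subunit, was at 5.53, 5.48, 5.59 and 5.33 in fresh-frozen and at 4.81, 4.73, 4.88 and 4.75 in fixed libraries, and fell by 0.69 ± 0.08 (limma adjusted p = 1.67e-05). PSMB6, the caspase-like subunit, was at 5.52, 5.04, 5.22 and 4.95 against 4.65, 4.55, 4.53 and 4.61, and fell by 0.60 ± 0.12 (limma adjusted p = 0.000818). Its fresh-frozen values were more scattered than those of PSMB5 or PSMB7 (SD 0.25, against 0.08 and 0.11), and still did not overlap with the fixed ones. Among the structural beta subunits, PSMB4 fell by 0.77, PSMB2 by 0.72, PSMB1 by 0.36 and PSMB3 by 0.34. In each of the 7 genes every fixed library was below every fresh-frozen one, where 31.6% of all genes separated in that direction. All 7 calls held in 14 of 15 other settings, and with quantile normalization that of PSMB3 ended (-0.15, limma adjusted p = 0.208).

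The outer alpha rings form the gate of the core. Of 6 measured alpha genes, 3 fell and 3 were not called, with a median of -0.24. PSMA2 was at 4.76, 4.67, 4.71 and 4.52 log2 CPM in fresh-frozen and at 4.01, 3.94, 3.98 and 4.05 in fixed libraries, and fell by 0.67 ± 0.09 (SE; limma adjusted p = 5.78e-05). PSMA6 fell by 0.59 and PSMA1 by 0.38, both without overlap between the groups. The call of PSMA1 ended with quantile normalization (-0.20, limma adjusted p = 0.0785). PSMA3 stood at 5.48, 5.60, 5.46 and 5.60 against 5.49, 5.64, 5.73 and 5.58, with a change of 0.07 (limma adjusted p = 0.410). For PSMA4 the change was -0.02 (limma adjusted p = 0.833) and for PSMA5 it was -0.10 (limma adjusted p = 0.329), with overlapping groups in both. Genes whose products sit in equal copies in the same ring thus differed in their change, from -0.67 to 0.07 in the alpha ring. PSMA7 is not analysed here.

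**Figure D2:**
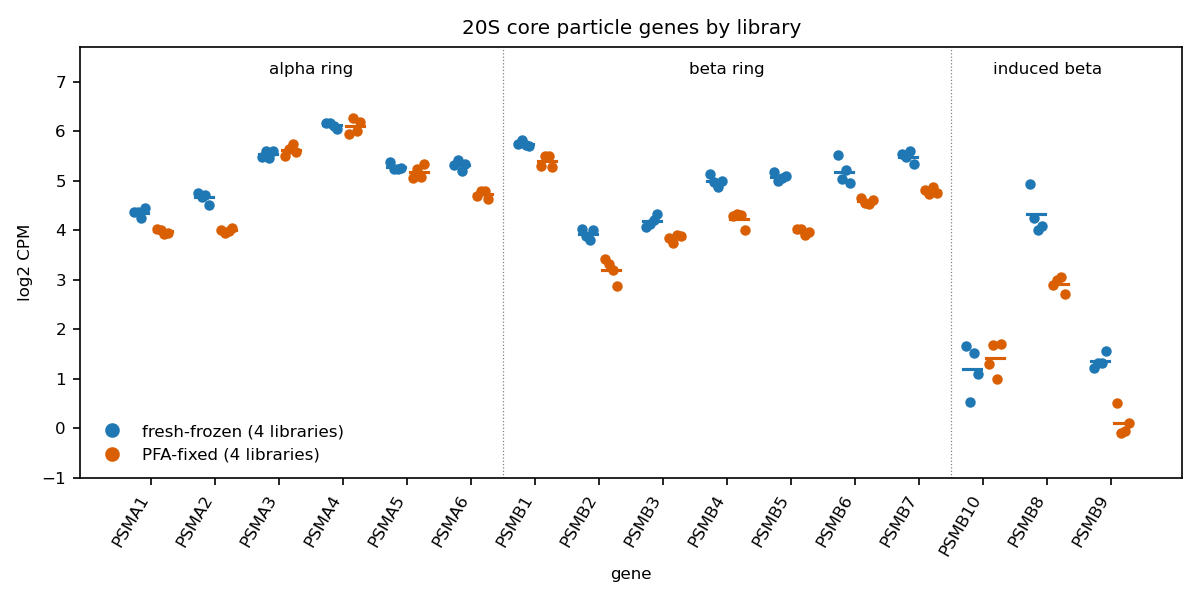
Log2 CPM (y axis) of each measured 20S core gene (x axis) in the 4 fresh-frozen (blue) and 4 PFA-fixed (orange) libraries, with bars for group means. All 7 constitutive beta genes are lower in every fixed library, while PSMA3, PSMA4 and PSMA5 of the alpha ring and PSMB10 overlap between groups.

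Immune and interferon-exposed cells exchange the 3 catalytic subunits for induced ones: PSMB8 takes the place of PSMB5, PSMB9 that of PSMB6 and PSMB10 that of PSMB7. PSMB8 was at 4.94, 4.25, 4.01 and 4.08 log2 CPM in fresh-frozen and at 2.89, 2.99, 3.06 and 2.71 in fixed libraries. Fresh-frozen replicate 1 was the highest, and no fixed library reached the fresh-frozen range. The fall of 1.41 ± 0.19 (SE; limma adjusted p = 4.29e-05) was the largest among the 120 genes, and was 1.20 without fresh-frozen replicate 1. PSMB9 was low in all libraries, at 1.22, 1.32, 1.32 and 1.55 in fresh-frozen and 0.50, -0.10, -0.06 and 0.11 in fixed ones, and fell by 1.24 ± 0.25 (limma adjusted p = 0.000824). It was the only member below 1 CPM (0 on the log2 scale) in any library, in 2 fixed ones. PSMB10 was at 1.66, 0.53, 1.52 and 1.09 against 1.30, 1.68, 1.0 and 1.70, and its change of 0.22 ± 0.29 was not called (limma adjusted p = 0.519).

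Set against its constitutive partner inside each library, PSMB8 minus PSMB5 was -0.24, -0.74, -1.04 and -1.01 in fresh-frozen and -1.12, -1.03, -0.85 and -1.25 in fixed libraries. These ranges overlapped, and the shift of -0.31 did not pass (exact two-sided permutation p = 0.171). PSMB9 minus PSMB6 shifted by -0.65 and PSMB10 minus PSMB7 by 0.91, each with an exact permutation p of 0.0571 (adjusted p = 0.0762 over 4 pairs). Genes typical of immune cells fell, as PSMB8 and PSMB9 did and PSMB10 did not. Of 15 microglia and macrophage markers, 13 fell and none rose, and their summed level was 259 to 416 CPM in fresh-frozen libraries, highest in replicate 1, and 44.6 to 61.3 CPM in fixed ones. Of these markers only TMEM119 stood at the lowest value of the table in any fixed library. Of 10 endothelial markers, 9 fell, from a sum of 1002 to 1361 CPM to one of 514 to 635 CPM. The part of these cells in the fall of PSMB8 and PSMB9 was not tested. In bulk tissue, fewer cells of a type and less RNA per cell cannot be told apart.

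The base of the regulatory particle holds a ring of 6 ATPases that unfold the substrate. Of these genes 4 were called lower and 1 higher, and the median change was -0.30. PSMC3 was at 6.21, 5.95, 6.09 and 6.0 log2 CPM in fresh-frozen and 5.60, 5.71, 5.60 and 5.59 in fixed libraries, and fell by 0.44 ± 0.08 (SE; limma adjusted p = 0.000300). PSMC1, PSMC4 and PSMC2 fell by 0.35, 0.31 and 0.29, so that the 4 falls spanned a narrow range. PSMC5 varied little, at 6.85, 6.91, 6.90 and 6.88 against 6.84, 6.89, 6.83 and 6.87, with a change of -0.03 ± 0.05 (limma adjusted p = 0.654). PSMC6 rose by 0.28 ± 0.08 (limma adjusted p = 0.00770), from 6.01, 6.17, 5.94 and 6.25 to 6.35, 6.43, 6.29 and 6.41. Its rise was 0.03 and not called with the rod gene mean, and its change was -0.37 and called lower with the rod gene median.

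Of the 11 non-ATPase subunit genes of the regulatory particle, 8 were called lower and 2 higher, and the median change was -0.23. With each library centred on its median only 4 were called lower, and PSMD1, PSMD3, PSMD12 and PSMD13 were not called (-0.12, -0.16, -0.09 and -0.19). PSMD2, the scaffold of the base to which ubiquitin receptors bind, stood at 7.20, 7.06, 7.08 and 7.04 log2 CPM in fresh-frozen and at 5.98, 6.12, 6.06 and 6.0 in fixed libraries. The groups were far apart relative to their spread, with a fall of 1.05 ± 0.06 (SE; limma adjusted p = 6.03e-08). PSMD1, the other large scaffold of the base, fell by only 0.20 ± 0.06 (limma adjusted p = 0.0138). PSMD8 of the lid fell by 0.58 ± 0.09 (limma adjusted p = 0.000109). PSMD11, PSMD14, PSMD13 and PSMD3 fell by 0.33, 0.32, 0.27 and 0.23. PSMD12 fell by 0.17. Leaving out fresh-frozen replicate 2 kept its call, whereas leaving out each of the other libraries in turn gave -0.18 to -0.13 with no call. PSMD3 was not called without fresh-frozen replicate 3 (-0.17).

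Both rises were of lid subunits. PSMD7 was at 6.69, 6.41, 6.63 and 6.66 log2 CPM in fresh-frozen and at 7.42, 7.39, 7.38 and 7.38 in fixed libraries, and rose by 0.79 ± 0.07 (SE; limma adjusted p = 1.12e-06). The fixed values lay close together (SD 0.02). PSMD7 pairs in the lid with PSMD14, the deubiquitinase that cuts the ubiquitin chain off the substrate as it enters. PSMD14 went the other way, from 5.12, 5.11, 4.89 and 5.07 to 4.74, 4.63, 4.69 and 4.85 (-0.32 ± 0.09, limma adjusted p = 0.00790). PSMD6 rose by 0.40 ± 0.10 (limma adjusted p = 0.00308), from 6.32, 6.29, 6.21 and 6.09 to 6.35, 6.81, 6.72 and 6.63, where fixed replicate 1 was close to the fresh-frozen range. With the rod gene median PSMD7 was at 0.14 and PSMD6 at -0.25, neither of them called. Of the 8 lid genes 2 rose and 6 fell, and of the 9 base genes 1 rose and 6 fell.

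**Figure D3:**
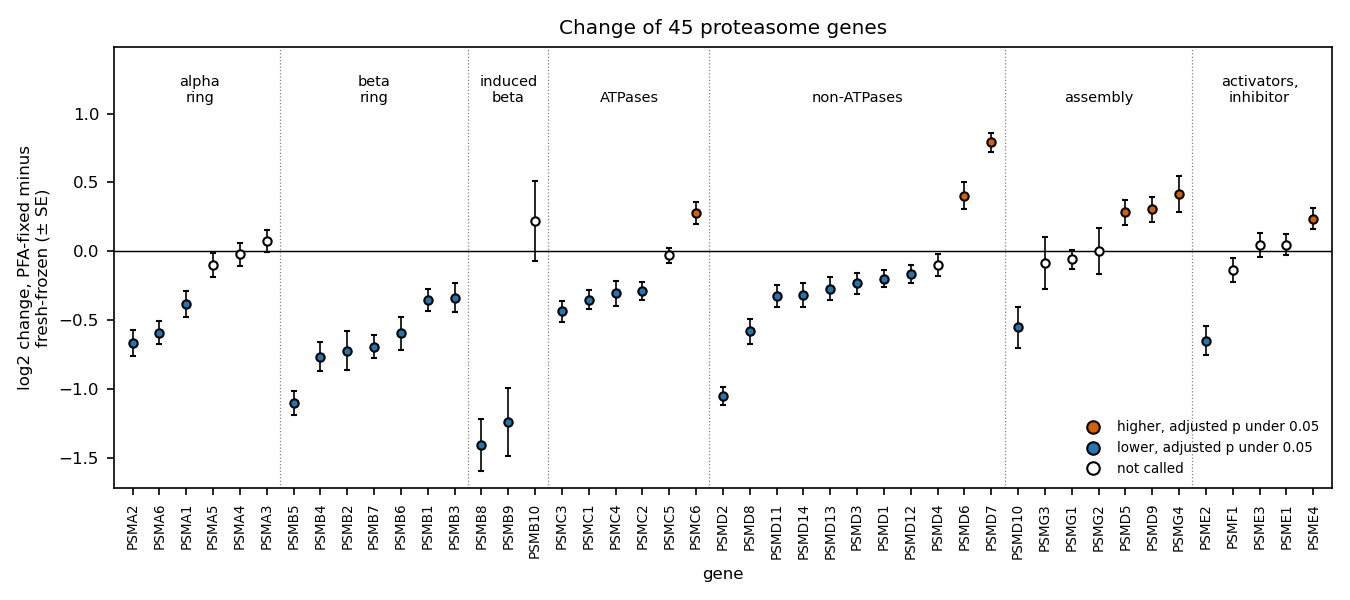
Log2 change, PFA-fixed minus fresh-frozen, with its SE (y axis) of the 45 proteasome genes (x axis), grouped by role; orange is called higher, blue called lower and white not called. Falls fill the beta ring and most of the regulatory particle, while PSMD7, at 0.79, has the largest rise.

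Assembly chaperones put the rings of the proteasome together. Of 7 chaperone genes 3 were called higher and 1 lower, and the median change was 0.0024. PSMG4 rose by 0.41 ± 0.13 (SE; limma adjusted p = 0.0149), PSMD9 by 0.31 and PSMD5 by 0.28, the latter 2 of which help to assemble the ATPase ring. None of these rises was called with the rod gene mean, and with the rod gene median 5 of the 7 chaperone genes and all 5 activator and inhibitor genes were called lower. PSMD10, the chaperone gankyrin, fell by 0.55 ± 0.15 (limma adjusted p = 0.00652), from 4.22, 3.89, 4.46 and 4.24 to 3.35, 3.86, 3.58 and 3.80 log2 CPM, where fixed replicate 2 came within 0.1 of the lowest fresh-frozen value. PSMG1, which pairs with PSMG2 to build the alpha ring, was at 7.83, 8.04, 7.86 and 8.07 against 7.85, 7.89, 7.98 and 7.84 (-0.06, limma adjusted p = 0.473). PSMG2 and PSMG3 were not called either.

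Activators open the gate of the core in place of the regulatory particle. PSME1 and PSME2 encode the 2 subunits of the interferon-inducible activator PA28. PSME2 was at 4.96, 4.72, 4.94 and 4.77 log2 CPM in fresh-frozen and at 4.14, 4.12, 4.41 and 4.12 in fixed libraries, and fell by 0.65 ± 0.10 (SE; limma adjusted p = 0.000161). PSME1 was at 6.29, 6.12, 6.12 and 6.04 against 6.10, 6.31, 6.16 and 6.18 (0.05 ± 0.08, limma adjusted p = 0.609). The difference PSME1 minus PSME2 was 1.18 to 1.41 in fresh-frozen and 1.76 to 2.19 in fixed libraries, a shift of 0.70 without overlap (exact permutation p = 0.0286, the smallest that 70 assignments allow, and adjusted p = 0.0762 over 4 pairs). In the gene table of the assembly UU_Cfam_GSD_1.0, EMC9 lies between them and overlaps PSME1, so some reads of PSME1 may not be its own. PSME3, the nuclear activator, did not differ beyond its spread (0.04 ± 0.09, limma adjusted p = 0.676). PSME4, the large activator PA200, rose by 0.24 ± 0.08 (limma adjusted p = 0.0151). Its change was -0.02 with the rod gene mean, and -0.41 and called lower with the rod gene median. The inhibitor gene PSMF1 was not called.

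Among the 28 UBE2 genes 7 rose and 8 fell, and the only changes of at least 2-fold were 3 rises. UBE2T, which attaches ubiquitin to the Fanconi anaemia protein FANCD2 in DNA repair, was at 1.92, 2.19, 2.23 and 2.30 log2 CPM in fresh-frozen and at 3.77, 3.73, 3.86 and 3.88 in fixed libraries. That is a rise of 1.65 ± 0.14 (SE; limma adjusted p = 6.44e-07) or 3.14-fold, the largest among the 120 genes. UBE2E2 rose by 1.62 ± 0.15 (limma adjusted p = 1.54e-06), from 3.88, 3.73, 4.42 and 4.25 to 5.52, 5.81, 5.62 and 5.81. UBE2W, which ubiquitinates the amino terminus of proteins, rose by 1.14 ± 0.14 (limma adjusted p = 2.19e-05), from 4.29, 4.62, 4.33 and 4.66 to 5.62, 5.64, 5.94 and 5.25. In all 3 genes every fixed library was above every fresh-frozen one, where 31.3% of all genes separated in that direction. All 3 were still called higher with the rod gene median (1.0, 0.97 and 0.49). The remaining rises were UBE2D2 at 0.77, UBE2E3 at 0.31, UBE2O at 0.29 and UBE2J1 at 0.23. The call of UBE2E3 ended without each of 5 single libraries (0.20 to 0.30), fresh-frozen replicates 1, 2 and 4 and fixed replicates 2 and 3. With the rod gene median UBE2O and UBE2J1 were called lower.

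Falls among the UBE2 genes were all less than 2-fold. UBE2L6, which carries the ubiquitin-like protein ISG15, had the largest, from 3.42, 3.50, 3.51 and 3.23 to 3.15, 3.12, 2.59 and 2.35 log2 CPM (-0.61 ± 0.19 SE, limma adjusted p = 0.0131). Its fixed libraries were scattered (SD 0.40), and the call ended with quantile normalization (-0.30, limma adjusted p = 0.190). UBE2S, which extends chains for the anaphase-promoting complex, fell by 0.47 ± 0.11 (limma adjusted p = 0.00195). UBE2M carries the ubiquitin-like protein NEDD8 to cullins, and fell by 0.40 ± 0.11 (limma adjusted p = 0.00869), but was not called after quantile normalization (-0.27, limma adjusted p = 0.0543). UBE2M overlaps TRIM28 in the gene table. UBE2F, the other NEDD8 enzyme, was at 4.10, 4.27, 4.31 and 4.21 against 4.14, 4.15, 4.32 and 4.36 (0.02 ± 0.10, limma adjusted p = 0.858). UBE2L3, UBE2G2, UBE2Q1, UBE2Z and UBE2D3 fell by 0.40, 0.37, 0.33, 0.32 and 0.28.

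The UBE2D enzymes are nearly identical broad-range E2s, and their genes and pseudogenes can share reads, so single values are uncertain. UBE2D2 was at 5.29, 5.52, 5.45 and 5.62 log2 CPM in fresh-frozen and at 6.38, 5.98, 6.26 and 6.36 in fixed libraries. UBE2D3 was at 7.02, 7.22, 7.0 and 7.06 against 6.80, 6.68, 6.91 and 6.78. The first was thus higher in every fixed library and the other lower, and UBE2D1 was not called (-0.14, limma adjusted p = 0.455). UBE2N and its partners UBE2V1 and UBE2V2, which build lysine-63-linked chains, were not called (-0.10, -0.08 and -0.40). UBE2A and UBE2B, the RAD6 pair, were not called either (0.04 and 0.02). Of the E2s of protein degradation at the endoplasmic reticulum, UBE2J1 rose by 0.23, UBE2G2 fell by 0.37 and UBE2J2 was not called (0.09).

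USP genes make up the largest family of deubiquitinases, and here their rises outnumbered their falls. USP18, which removes ISG15 rather than ubiquitin, had the largest rise, from 5.16, 5.05, 5.32 and 5.38 to 6.66, 6.48, 6.67 and 6.69 log2 CPM (1.40 ± 0.09 SE, limma adjusted p = 6.94e-08). The ISG15 conjugating enzyme gene UBE2L6 thus fell where the deconjugase gene USP18 rose. USP48 rose by 1.10 ± 0.08 (limma adjusted p = 2.36e-07), from 6.80, 6.67, 6.54 and 6.84 to 7.83, 7.83, 7.90 and 7.67. These 2 were the only USP genes still called higher with the rod gene median (0.75 and 0.45). USP34, a very large enzyme active in Wnt signalling, was at 8.37, 8.56, 8.35 and 8.62 in fresh-frozen and at 9.28, 9.27, 9.24 and 9.19 in fixed libraries, a rise of 0.77 ± 0.07 (limma adjusted p = 1.95e-06) that was 0.12 and not called with the rod gene median.

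USP2, USP35, USP16, USP15 and USP49 rose by between 0.74 and 0.84. USP49 overlaps TOMM6 in the gene table. The smaller rises ran from 0.26 in USP19 and USP13 to 0.54 in USP36. They included USP8, which acts on endosomal receptors (0.49), and USP1, which takes ubiquitin off FANCD2 and so opposes UBE2T (0.45). The call of USP13 ended without fresh-frozen replicate 1 or 2 or fixed replicate 1 or 3 (0.22 to 0.26). The call of USP19 ended without fresh-frozen replicate 4 or fixed replicate 2 (0.20 in both). USP11 and USP7, among the members with the highest CPM, were not called. USP11 was at 8.45, 8.38, 8.64 and 8.45 against 8.40, 8.42, 8.33 and 8.44 (-0.08 ± 0.07, limma adjusted p = 0.286), and was called lower with quantile normalization (-0.23, limma adjusted p = 0.0149).

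The 2 largest falls of the USP family were of similar size. USP46, a regulator of glutamate receptor turnover at synapses, went from 5.60, 5.74, 5.65 and 5.84 to 4.43, 4.41, 4.60 and 4.83 log2 CPM (-1.14 ± 0.11 SE, limma adjusted p = 1.73e-06). USP53, a tight junction protein, went from 5.61, 5.62, 5.38 and 5.61 to 4.56, 4.45, 4.63 and 4.46 (-1.03 ± 0.09, limma adjusted p = 9.02e-07). USP3, USP4, USP5, USP10, USP25 and USP33 fell by between 0.39 and 0.58. USP5, which disassembles free ubiquitin chains, was among them at -0.43. USP38 fell by 0.24, and lost its call without each of 5 libraries left out in turn (-0.24 to -0.19), fresh-frozen replicates 2 and 4 and fixed replicates 1, 3 and 4. USP14, the deubiquitinase that docks on the proteasome, was at 5.93, 6.0, 6.06 and 5.93 against 5.90, 5.58, 5.76 and 5.99 and was not called (-0.17 ± 0.09, limma adjusted p = 0.107).

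USP4, USP11 and USP15 are paralogs of the same domain structure. USP15 was at 5.55, 5.52, 5.43 and 5.70 log2 CPM in fresh-frozen and at 6.37, 6.38, 6.30 and 6.46 in fixed libraries, whereas USP4 was at 6.46, 6.52, 6.48 and 6.53 against 6.11, 5.94, 6.05 and 5.89. Both were called, USP15 higher (0.83) and USP4 lower (-0.50), and neither pair of groups overlapped. USP12 and USP46 are close paralogs that bind the same activating partner. USP12 rose by 0.36, while USP46 fell by 1.14. USP20, the paralog of USP33, was at 0.20 (limma adjusted p = 0.0687). With the rod gene median USP15 was at 0.18 and not called, and USP4 was at -1.15.

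The OTUD enzymes are cysteine proteases of another fold, several of them selective for particular ubiquitin linkages. OTUD7A rose by 1.0 ± 0.14 (SE; limma adjusted p = 4.40e-05), from 3.51, 3.44, 3.78 and 3.86 to 4.57, 4.50, 4.57 and 4.94 log2 CPM. Its paralog OTUD7B (Cezanne), which cuts lysine-11-linked chains, rose by 0.69 ± 0.11 (limma adjusted p = 0.000117), from 7.82, 7.76, 7.52 and 7.64 to 8.45, 8.60, 8.39 and 8.07. OTUD3 rose by 0.82 and OTUD4 by 0.59. In all 4 genes every fixed library was above every fresh-frozen one, where 31.3% of all genes separated in that direction. None of the 4 was called with the rod gene median (-0.06 to 0.35). OTUD1 fell by 0.92 ± 0.12 (limma adjusted p = 3.54e-05), from 4.39, 4.34, 4.25 and 4.26 to 3.39, 3.66, 3.18 and 3.31. OTUD5 and OTUD6B were not called, although every fixed library exceeded every fresh-frozen one in OTUD6B (0.18 ± 0.08, limma adjusted p = 0.0751).

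**Figure D4:**
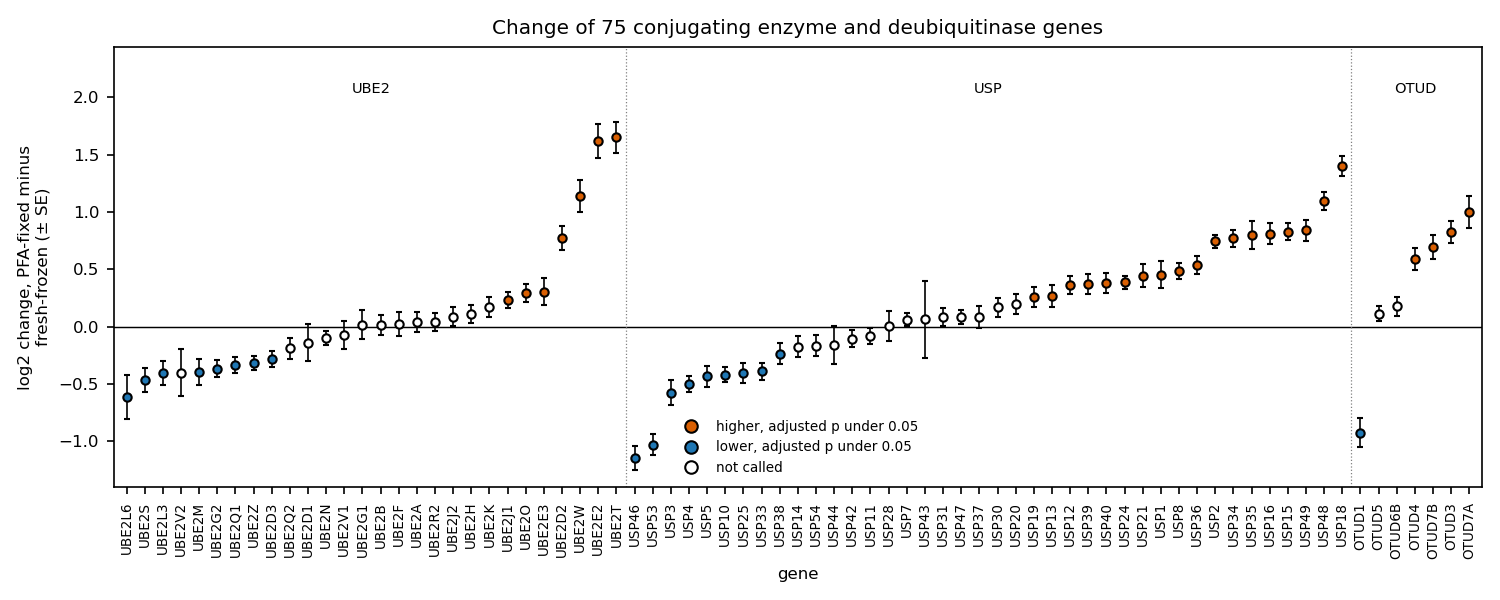
Log2 change, PFA-fixed minus fresh-frozen, with its SE (y axis) of the 28 UBE2, 40 USP and 7 OTUD genes (x axis), each family ordered by its change; orange is called higher, blue called lower and white not called. UBE2T (1.65), UBE2E2 (1.62) and USP18 (1.40) lie at the top, and USP46 (-1.14) and USP53 (-1.03) at the bottom.

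Of 94 other measured genes of the pathway, listed apart from the 120, 33 rose and 30 fell (35.1% and 31.9%), close to the 33.9% and 34.7% of all genes. Ubiquitin is made from precursor genes, of which UBB averaged 8.87 ± 0.12 log2 CPM in fresh-frozen and 7.69 ± 0.07 in fixed libraries (SD, n = 4; -1.18, limma adjusted p = 4.68e-08), and RPS27A fell by 0.82. Of 8 E1 genes, 2 rose and 3 fell. NAE1, a subunit of the NEDD8 activating enzyme, rose by 0.84, SAE1 of the SUMO activating enzyme fell by 0.70, and UBA1, the main ubiquitin E1, fell by 0.36. Of 11 proteasome partners, 3 rose and 4 fell. POMP, the maturation chaperone of the beta rings, rose from 5.66 ± 0.13 to 6.73 ± 0.15 (1.07, limma adjusted p = 8.48e-07). NFE2L1, the transcription factor that drives proteasome genes when the proteasome is impaired, fell from 8.28 ± 0.14 to 7.44 ± 0.09 (-0.83, limma adjusted p = 2.12e-06). POMP thus went against the 7 beta subunit genes, and NFE2L1 went with them. A link of either gene to the changes of the beta subunit genes was not tested.

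The segregase VCP extracts ubiquitinated proteins from complexes and membranes. Of VCP and its measured cofactors (9 genes), 3 rose and 3 fell, with VCP down by 0.43 and the cofactor NSFL1C up by 1.13. Of 18 further deubiquitinases, 8 rose and 5 fell (44.4% and 27.8%), led by the histone deubiquitinase MYSM1 (1.39) and by JOSD2 (-0.72). The balance turned with the rod gene mean (2 rises and 6 falls) and median (1 and 10). The E3 list had 17 rises and 10 falls among 41 genes, led by MARCHF6 (1.91), a ligase of the endoplasmic reticulum, and NEDD4 (-2.33), and this balance turned as well, to 8 and 19 with the rod gene mean and 1 and 29 with the rod gene median. UBE2QL1, an E2-like gene outside the 120, fell by 0.90. Of these rises, those of POMP, NSFL1C, MYSM1 and MARCHF6 were still called with the rod gene median, and that of NAE1 was not (0.19).

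The contrast between proteasome and deubiquitinase genes was also read inside each library, where the scaling of the library cancels. A part of transcript length in these differences was not tested. The median log2 CPM of the 45 proteasome genes minus that of the 40 USP genes was -0.09, -0.23, -0.13 and -0.36 in fresh-frozen replicates 1 to 4. It was -0.78, -0.65, -0.75 and -0.71 in fixed replicates 1 to 4, below all fresh-frozen values. UBE2 minus USP was -0.35 to -0.17 in fresh-frozen and -0.55 to -0.46 in fixed libraries, again without overlap. Proteasome minus UBE2 overlapped, at -0.19 to 0.27 and -0.30 to -0.14. These differences reuse the values behind the calls above. Of all single genes 62.9% separated, and no such share for differences of family medians was set beside them. The median change of the USP genes exceeded that of the proteasome genes by 0.40 as deposited. Of the 15 other settings, 5 leave this difference as it is by construction. In the other 10 (quantile normalization, the minimum mean and each library left out) it was 0.37 to 0.46, and the order of the medians was proteasome, UBE2, USP. The sign of the USP and UBE2 medians was not kept, and turned negative with both rod gene scalings (-0.13 and -0.52 for USP, -0.24 and -0.63 for UBE2).

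**Figure D5:**
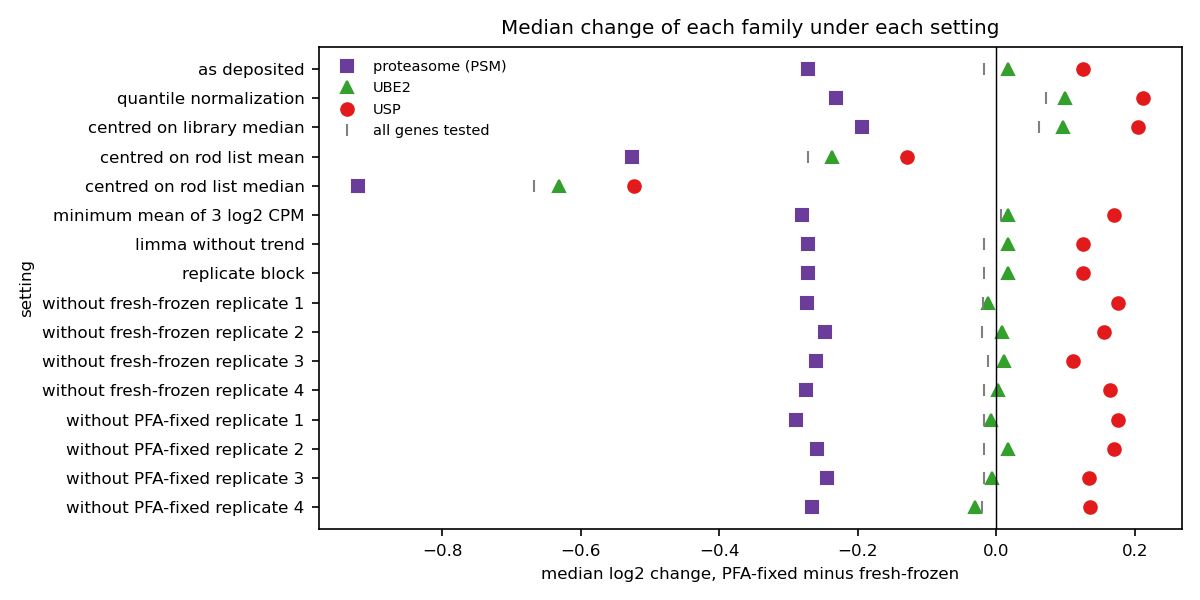
Median log2 change, PFA-fixed minus fresh-frozen (x axis), of the proteasome, UBE2 and USP genes and of all genes tested, as deposited and under 15 other settings (y axis). The squares of the proteasome lie left of the other families, by construction at the deposited spacing in 5 of the rows, and the whole set shifts left with the rod gene scalings.

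Across the 45 proteasome genes the change was higher where the mean level was higher (Pearson r = 0.34, Spearman rho = 0.39). The coefficients were 0.24 and 0.24 over the 40 USP genes and -0.15 and 0.05 over the 28 UBE2 genes. These describe genes that share the same 8 libraries, not replicates. The mean level holds values that also enter the change, and no coefficient over all genes was set beside them. Whether the relation is particular to these families was not tested. The median SD between replicates over the 120 genes was 0.11 in fresh-frozen and 0.10 in fixed libraries, against 0.16 and 0.15 over all genes. The 120 genes also had higher median levels, at 5.53 and 5.61 log2 CPM against 4.97 and 4.88. The SDs were not compared at matched level. Single members were more scattered, such as PSMB10 in fresh-frozen libraries (SD 0.51). In the RefSeq annotation of UU_Cfam_GSD_1.0, 12 of the 120 overlap another measured protein-coding gene, and reads of such pairs cannot be told apart, since the strand setting is not given in the sources used here.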

How the data were processed

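Total RNA of dog retina was sequenced in 4 fresh-frozen and 4 PFA-fixed libraries, grouped by the titles in the labels. The authors deposited log2 CPM (the log2 of library-scaled counts) for 12824 genes. Per the submitters' processing notes they used kallisto 0.48.0, edgeR and limma, with no role or order given. For the reference, the strand setting and the filter, the sources used here give nothing. No gene had fewer than 4 libraries over 1 CPM, and the lowest value was -3.12 in all libraries. Linear values summed to 947376 to 1058314 per library. The sums of the fixed libraries exceed what counts scaled to library size alone can give. The values thus carry a further scaling between libraries, which the sources used here do not describe. Values near the lowest one understate a change.

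Depth came from the spacing of low values, searched between 0.03 and 0.15 CPM. Among values up to 20 reads, only 60.9% to 66.7% came within 0.1 of a whole read (chance gives 20%), so reads were not recovered and no count test was run.

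All genes were fitted with limma 3.58.1 (intensity trend, R 4.3.3) on the deposited values, with Benjamini-Hochberg adjustment over 12824 genes at 0.05 and no further filter. The fit was tried on simulated data for 12824 genes, with 50 genes at each size of change. It found 64% at 1.5-fold, 78% at 2-fold, 96% at 4-fold and 100% at 8-fold, with 5 false calls among 12624 unchanged genes. In the deposited data 68.7% of genes were called, a far larger share than was changed in the simulation. The rate of recovery and of false calls at such a share was not tested. Differences of gene pairs inside libraries were tested by exact two-sided permutation (70 assignments, smallest p 0.0286). Alternatives were quantile normalization, centring on the library median or on the mean or median of 22 rod genes, a minimum mean of 3 log2 CPM, limma without trend, the replicate number as a block and leaving out each library.

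The members, lists and tests were chosen with earlier results of these data known. Of each class, the 2 called members with the largest rise, the 2 with the largest fall and the 2 with the highest mean were to be named, with PSMB5 to PSMB10, PSME1 to PSME3, UBE2M, UBE2F and UBE2L6, and the largest called rise and fall of each list of other pathway genes. Other members were named after their values were seen, and some items the rule or lists hold are not reported here. All 120 symbols matched the RefSeq gene table of UU_Cfam_GSD_1.0, used only for names and neighbours.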

Additional observations from a re-analysis of the deposited data

Results flagged for a closer look

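Among the 49 members the naming rule takes, 98 groups of 4 libraries were searched for a library that stood apart, with a gap to its nearest neighbour that exceeded Dixon's critical share of the group's range. Chance flags about 1 in 20 groups, and 8 were found. In fixed replicate 4, PSMB4 was at 4.00 log2 CPM (4.29 to 4.33 in the other libraries of its group) and OTUD7A at 4.94 (4.50 to 4.57). In fixed replicate 3, PSME2 was at 4.41 (4.12 to 4.14) and PSME4 at 7.39 (7.29 to 7.30). In fixed replicate 2, PSMC3 was at 5.71 (5.59 to 5.60) and USP18 at 6.48 (6.66 to 6.69). OTUD3 was at 4.25 in fresh-frozen replicate 1 (4.45 to 4.48), and USP53 at 5.38 in fresh-frozen replicate 3 (5.61 to 5.62). All of these genes were called without each single library as well.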

How the results depend on the processing

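Leaving out single libraries gave 7 rises and 24 to 26 falls among proteasome genes, 6 to 8 and 8 to 9 among UBE2 genes and 17 to 19 and 8 to 9 among USP genes, with medians of -0.29 to -0.24, -0.03 to 0.02 and 0.11 to 0.18, and changed the call of none of the 49 members taken by the naming rule. With the replicate block, 36 members rose and 42 fell, and the calls of PSMD12 and USP38 ended. Same-numbered libraries were not linked by the labels, and their deviations correlated at 0.05, 0.15, -0.09 and 0.22. The scaling changed most. With the rod gene mean, rises and falls numbered 1 and 32 of the proteasome genes (median -0.53), 4 and 13 of the UBE2 genes (-0.24) and 10 and 14 of the USP genes (-0.13). With the rod gene median they numbered 0 and 40 (-0.92), 3 and 23 (-0.63) and 2 and 22 (-0.52). Library median centring gave medians of -0.19 for proteasome and 0.20 for USP genes, and quantile normalization gave 0.21 for USP genes. With the rod gene median, the sign turned for PSMC6 (-0.37), PSMD5 (-0.37), PSMD6 (-0.25), PSMD9 (-0.34), PSMG4 (-0.24), PSME4 (-0.41; -0.019 with the mean), UBE2O (-0.36) and OTUD4 (-0.056), and for PSMA3 (-0.57), PSME1 (-0.60), PSME3 (-0.61) and UBE2F (-0.63), which were called only there. A minimum mean of 3 log2 CPM kept 115 of the 120 genes, and the cause of the shifts between scalings was not tested. Depth limits the precision of low members such as PSMB9, at up to 0.50 log2 CPM in fixed libraries.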
